A study of Mus musculus with 20 samples.

Results

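The transcripts described here are 275 of the 7605 transcripts that the ribosome profiling tables of all 3 tagged mouse embryonic stem cell lines list. No RNA-seq table of the series lists these 275. They were chosen by measured values: a transcript had to be absent from the RNA-seq tables and to reach a mean of 10 RPKM over the 6 libraries of total ribosome footprints. RPKM is the read number scaled by transcript length and by library size. Of the 342 common transcripts absent from the RNA-seq tables (4.50% of the common ones), 65 fell below that level and 2 were among the 4 identifiers that the selection leaves out.

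All libraries came from E14 mouse embryonic stem cells, a pluripotent line, and all cells received cycloheximide, which arrests translating ribosomes, shortly before harvest. The 12 footprint libraries came from 3 lines with 1 tagged allele of a ribosomal protein gene at its own locus: 3xFLAG-Rpl10a, Rps25-3xFLAG and Rpl22-3xHA. Each line gave 2 libraries of footprints from all ribosomes of the lysate (total) and 2 from ribosomes pulled down through the tag (capture), with anti-FLAG M2 beads in the RPL10A and RPS25 lines and an anti-HA antibody in the RPL22 line. The 8 RNA-seq libraries came from polysome gradients of wild-type cells treated with control siRNA or Rpl10a siRNA. Heavy polysomes were pooled apart from all lighter fractions, with 2 libraries each. Because the tag sits on 1 of the alleles, ribosomes built with the untagged copy of the protein escape the capture. The labels do not say whether a line is a single clone, or whether libraries of the same group came from separate cultures, so p-values measure the spread between these libraries, which may be technical.

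Ribosome profiling (Ribo-Seq) digests the mRNA that no ribosome covers and sequences the protected fragments, or footprints, so a transcript's footprint level reflects both its abundance and how densely ribosomes occupy it. RPL10A and RPL22 belong to the large ribosomal subunit and RPS25 to the small one. A capture ratio above 0, on the log2 scale, means a higher RPKM in the capture than in the total libraries of the same line. The transcript then holds a larger share of the footprints of ribosomes carrying the tagged protein than of all ribosomes. The ratio was computed as the mean of log2(RPKM + 1) in the 2 capture libraries minus that in the 2 total libraries. This scale understates differences of low transcripts.

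The tables name transcripts by UCSC identifiers, none of which (0) the reference tables at hand pair with a gene. Gene symbols, functions, coordinates, sequences, the level of the tagged genes and markers of the cell type were therefore not analysed here, and the transcripts are ordered by level and by capture. The 12 footprint columns summed to 1082511 to 1201737 RPKM. Read totals were not used here, so the depth behind each value is unknown. Line tables were normalised separately. The titles of 2 RPL22-line libraries call them total while their antibody label gives anti-HA. That line further differed in a lysis buffer listing no heparin and in STAR being named among its processing tools, so line, antibody, buffer and processing cannot be told apart.

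The absent transcripts were not concentrated at the bottom of the footprint range. Among transcripts below 10 RPKM, 5.21% (65 of 1247) were absent from the RNA-seq tables. The share was 5.17% (136 of 2632) from 10 to 30 RPKM, 3.06% (67 of 2190) from 30 to 100, 4.21% (40 of 949) from 100 to 300 and 5.79% (34 of 587) at 300 RPKM or more. The share was thus lowest in the middle of the range and highest at its top. Just inside the threshold of 10 RPKM lay transcripts at 10.1 and 10.2 RPKM, and just outside it lay 9.98 and 9.73.

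Being absent from a table is not a measured 0. The highest value of each RNA-seq transcript over the 8 libraries was at least 2, and that of each footprint transcript in its line's table was at least 5.1 RPKM (RPL10A and RPS25) or 5 RPKM (RPL22), so all tables lack transcripts under some level. None (0) of the 8084 RNA-seq transcripts was missing from the RPL10A table, whereas 380 were missing from the RPS25 table and 595 from the RPL22 table. The RNA-seq list was therefore nested within the list of the RPL10A line. The RNA level of the 275 transcripts was not analysed here. The RNA-seq labels describe RNA with rRNA depletion, while their protocol names an mRNA library kit.

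Identifiers of the higher-numbered UCSC series were more frequent among the absent transcripts. This grouping by the first 5 characters was made after the identifiers had been seen. In the series uc007, uc008 and uc009 together, 3.63% (258 of 7114) of common transcripts were absent from the RNA-seq tables. In the series uc011 to uc033 together, 17.1% (84 of 491) were. The highest shares were in uc029, at 31.5% (17 of 54), and in uc033, at 27.8% (25 of 90), followed by uc011 at 16.8% (18 of 107) and uc012 at 10% (24 of 240). Of the 275 transcripts, 204 (74.2%) carried identifiers of the 3 lowest-numbered series, against 94.6% of the 6080 RNA-listed transcripts at 10 RPKM or more. The uc029 and uc033 series together made up 12.4% (34) of the 275 and 1.32% of the RNA-listed ones.

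**Figure D1:**
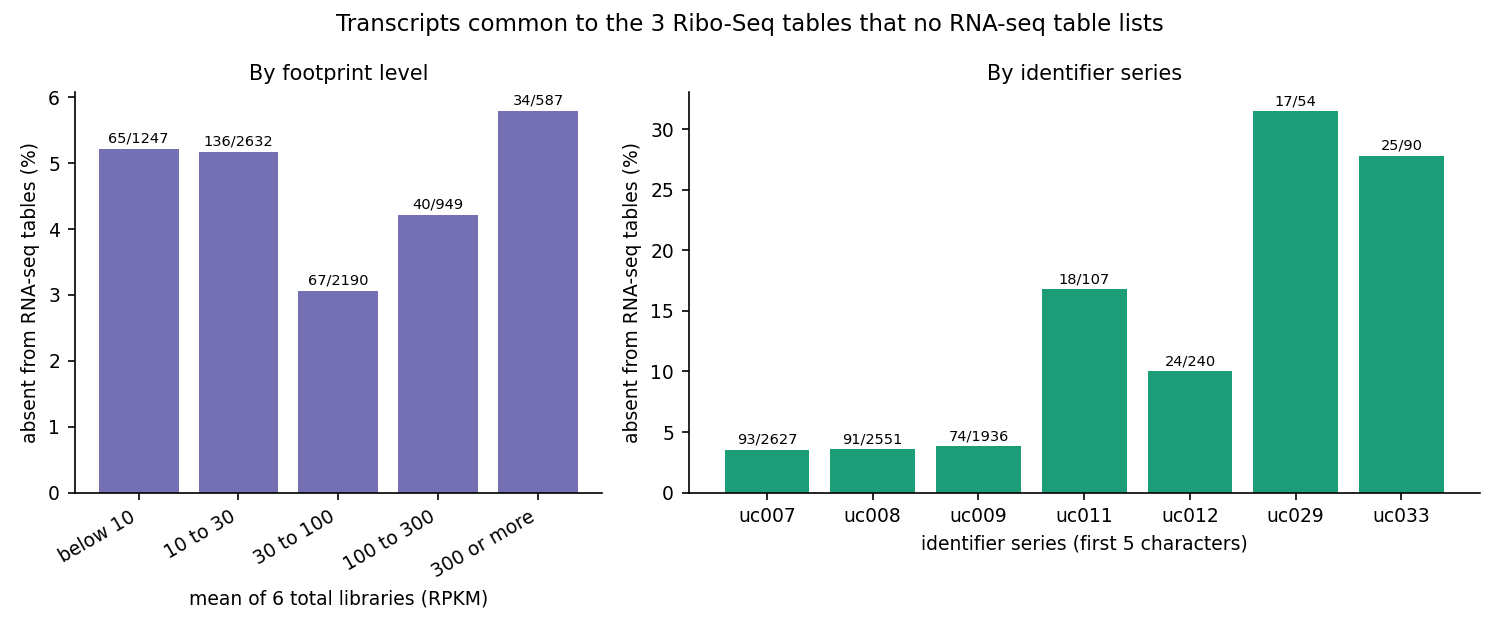
Share (%) of the transcripts common to the 3 Ribo-Seq tables that no RNA-seq table lists, by mean level in the 6 total libraries (left, RPKM) and by identifier series (right); the numbers over the bars are absent over all. By level the share stays between 3.06% and 5.79%, while by series it runs from 3.54% in uc007 to 31.5% in uc029.

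The 275 transcripts ranged from 10.1 to 3153 RPKM, while RNA-listed transcripts at 10 RPKM or more reached 11587. Their median over the 6 total libraries was 30.2 RPKM (quartiles 17.1 and 110), against 38.7 (quartiles 19.2 and 95.4) for the RNA-listed transcripts, and 33 of the 275 were at 300 RPKM or more. They were 3.62% of the common transcripts and held 4.09% to 4.37% of the RPKM summed over them in each of the 12 libraries. No library, total or capture, stood apart in that share. By line, the median of the 275 in the total libraries was 29.2 RPKM (RPL10A), 28.0 (RPS25) and 29.5 (RPL22).

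Replicates of these transcripts scattered slightly more than those of RNA-listed ones. The median absolute log2 difference between both replicates was 0.22 in the RPL10A totals (RNA-listed, 0.19), 0.22 in the RPL10A captures (0.20), 0.13 in the RPS25 totals (0.10), 0.21 in the RPS25 captures (0.20), 0.13 in the RPL22 totals (0.10) and 0.14 in the RPL22 captures (0.12). The RPL22 line had the closest replicates of the capture kind, and the RPL10A line the widest of the total kind. These differences in spread were not tested, nor compared at matched level. The 275 had the lower median level, at 30.2 RPKM against 38.7.

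The most highly footprinted of the 275 was uc008wjd.1, with a mean of 3153 RPKM in the total libraries. It read 2896.1 and 3748.4 RPKM in the RPL10A totals against 2560.1 and 2286.5 in the captures. In the RPS25 line the totals read 3757.5 and 3404.0 and the captures 1919.3 and 2180.4. In the RPL22 line the totals read 2636.2 and 2475.0 and the captures 2357.8 and 2283.7. Its captures lay below its totals in all 3 lines without overlap, by a log2 ratio of -0.45 (RPL10A), -0.81 (RPS25) and -0.14 (RPL22). None of these passed the test across all transcripts. The RPS25 ratio (SE 0.09, adjusted p = 0.0831, limma) had the lowest adjusted p that any of the 275 reached in that capture. Second by level was uc008qmp.1, with 3384.1 and 3174.7 RPKM in the RPS25 totals and 4237.3 and 4184.2 in the captures (log2 ratio 0.36, adjusted p = 0.105, limma). Its ratio was 0.12 in the RPL10A line, where the groups overlapped, and 0.17 in the RPL22 line.

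Capture was tested within each line on all transcripts of its table, including all 275, with no filter on low values. The total libraries enter both the choice of the 275 and the denominator of the ratio, so ratios near the level threshold are not independent of the choice. In the RPL10A line, 8 of the 275 (2.91%) passed an adjusted p below 0.05, 3 of them higher in the capture and 5 lower. Over all 8505 transcripts tested 1.46% passed, 0.847% higher and 0.611% lower. At an unadjusted p below 0.05 the share was 29.1% (80) of the 275 and 24.3% of all. Capture and total libraries did not overlap for 69 of the 275 on the higher side (28.0% of all transcripts) and for 84 on the lower side (28.7% of all). Counts without overlap were thus close to the background. Among RNA-listed transcripts at 10 RPKM or more, chosen on the same level, 1.1% passed the adjusted threshold.

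The median RPL10A ratio of the 275 was -0.06 (quartiles -0.30 and 0.26), against 0.00 over all transcripts tested, and 122 of 275 (44.4%) were above 0, against 50.1%. Their ratios had an SD of 0.49, against 0.46. With each library scaled to the same total, 3 of the 275 were called higher and 8 lower, and the calls over all transcripts went from 124 to 152. None (0) of the 8 calls was kept when any 1 of the 4 libraries of this line was left out, which leaves an arm with a single library, and 2 were made without a variance trend. Fitted together, the 12 libraries gave calls for 58 of the 275, against 17.1% of all transcripts.

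Of the 3 transcripts higher in the RPL10A capture, uc008oas.1 had the largest ratio. Its totals read 23.5 and 28.7 RPKM and its captures 55.3 and 83.6, so that the lower capture library was far above the higher total library. The log2 ratio was 1.36 (SE 0.23, adjusted p = 0.0327, limma). The same transcript had a ratio of 0.24 in the RPS25 capture and -0.10 in the RPL22 capture, and neither passed.

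The second, uc029wdl.1, read 11.5 and 16.0 RPKM in the RPL10A totals and 27.3 and 42.5 in the captures (log2 ratio 1.27, SE 0.26, adjusted p = 0.0490, limma). It sat at the edge of the threshold. The third, uc033igy.1, was much more abundant, at 1007.7 and 1121.1 RPKM in the totals and 1689.6 and 1783.0 in the captures (log2 ratio 0.71, SE 0.14, adjusted p = 0.0461). Its RPS25 captures, at 1515.2 and 1455.1 RPKM, also lay above that line's totals, at 1238.0 and 1217.3, with a ratio of 0.27 that did not pass (adjusted p = 0.137).

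Of the 5 transcripts lower in the RPL10A capture, uc009guh.1 had the largest decrease. Its totals read 52.1 and 37.0 RPKM and both of its captures 12.9, which gave a log2 ratio of -1.69 (SE 0.22, adjusted p = 0.0151, limma). For uc009euv.1 the totals were 71.7 and 59.0 RPKM and the captures 24.4 and 24.7 (log2 ratio -1.37, SE 0.18, adjusted p = 0.0182). In both, the capture replicates nearly coincided far below either total.

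The other 3 lower transcripts fell by smaller amounts. For uc029rsg.1 the RPL10A totals were 17.9 and 13.7 RPKM and the captures 6.6 and 5.9 (log2 ratio -1.20, adjusted p = 0.0464, limma). For uc008gmx.2 they were 34.1 and 30.4 against 17.2 and 13.6 (log2 ratio -1.03, adjusted p = 0.0461). The most abundant of the 5, uc009gfn.2, went from 163.5 and 125.0 RPKM in the totals to 73.3 and 72.7 in the captures (log2 ratio -0.96, adjusted p = 0.0412). In the RPS25 capture the ratio of all 5 was below 0, from -0.55 to -0.28, and that of the 3 higher transcripts was above 0, from 0.24 to 0.54. None of these RPS25 ratios passed. Near the selection level, at a mean of 11.3 RPKM, uc029rsg.1 reached it only with its RPL10A totals counted in. Its RPL10A ratio is therefore not independent of the choice.

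**Figure D2:**
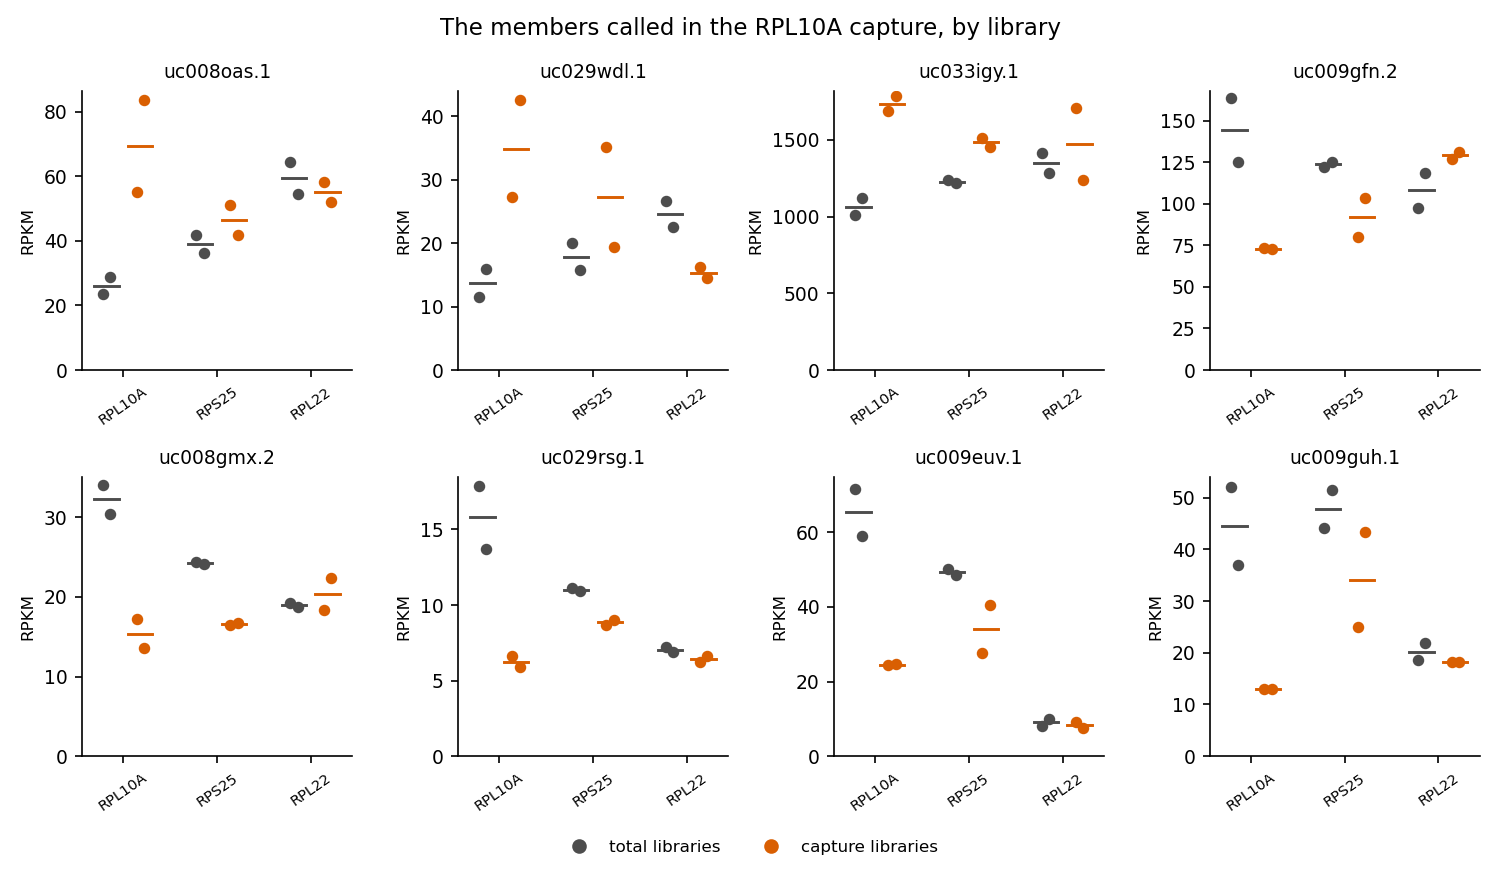
RPKM in each of the 12 footprint libraries for the 8 transcripts called in the RPL10A capture, ordered by that ratio; points are libraries (n = 2 per group), short lines group means, and each panel has its own vertical axis from 0. The 3 transcripts called higher (uc008oas.1, uc029wdl.1, uc033igy.1) and the 5 called lower show no overlap between RPL10A totals and captures.

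Among transcripts whose RPL10A captures and totals did not overlap, the most extreme ratios that did not pass were those of uc007ohp.2 and uc007jev.1. Others that did not pass also lay within the range of the called ratios, among them uc029qyg.1 (1.15), uc007ssk.2 (-1.16) and uc009frv.1 (-1.08). The highest RPL10A ratio of the 275 was that of uc009ujh.2, at 1.61 (SE 0.61, adjusted p = 0.157, limma), whose groups overlapped. The totals of uc007ohp.2 were 4.7 and 9.8 RPKM and its captures 16.7 and 22.8, a log2 ratio of 1.39 with the wider SE of 0.32 (adjusted p = 0.0692, limma). The totals of uc007jev.1 were 20.5 and 12.4 RPKM and its captures 4.7 and 6.4, a ratio of -1.39 (SE 0.29, adjusted p = 0.0544). In uc007ohp.2 and uc007jev.1 the total replicates differed from each other by a larger factor than those of uc008oas.1 or uc009guh.1. Both uc009ujh.2 and uc007ohp.2 averaged below 10 RPKM in the RPL10A and RPS25 totals and met the selection level through the RPL22 totals. Their RPL10A ratios are thus not independent of that choice. The same holds for uc007jev.1 and uc009frv.1, which reached that level only with their RPL10A totals, averaging 16.45 and 12.9 RPKM, counted in.

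In the RPS25 capture none of the 275 (0) passed the adjusted threshold in limma, against 0.0456% (4) of the 8779 transcripts tested. At an unadjusted p below 0.05 the share was 22.2% (61) of the 275 and 20.9% of all. Captures lay above totals without overlap for 68 of the 275 (27.9% of all transcripts) and below them for 73 (25.9% of all). The median ratio was 0.00, against 0.01 over all, with an SD of 0.35 against 0.37. A fit of all 12 libraries called 8 of the 275 (2.91%), against 2.62% of all transcripts.

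The highest RPS25 ratio among transcripts without overlap was that of uc008enx.2, with totals of 7.0 and 9.2 RPKM and captures of 19.1 and 16.0 (log2 ratio 1.03, SE 0.21, adjusted p = 0.106, limma). Its RPL10A captures disagreed with each other, at 4.6 and 22.5 RPKM. Next came uc009jih.2, with totals of 4.8 and 7.2 RPKM and captures of 11.9 and 13 (log2 ratio 0.96, adjusted p = 0.132). It was also higher without overlap in the RPL10A line, at 10.2 and 9.3 against 15.9 and 19.0 RPKM. In the RPL22 line it was lower without overlap, at 17.5 and 15.9 against 11.4 and 12.4 RPKM. Both uc008enx.2 and uc009jih.2 averaged below 10 RPKM in the RPL10A and RPS25 totals. They met the selection level through the RPL22 totals, at 17.3 and 16.7 RPKM, so their ratios are not independent of that choice.

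The lowest RPS25 ratio without overlap was that of uc009frv.1, with totals of 9.3 and 9.7 RPKM and captures of 2.6 and 3.8 (log2 ratio -1.34, SE 0.26, adjusted p = 0.102, limma). Its RPL10A totals, at 13.3 and 12.5 RPKM, likewise lay above the captures, at 6.8 and 4.5 (log2 ratio -1.08). At 10.1 RPKM this transcript was also the lowest of the 275 by level. It reached the selection level only with its RPL10A totals counted in, so its RPL10A ratio is not independent of that choice. The next, uc008szp.1, went from 53.9 and 49.1 RPKM to 34.5 and 17.8 (log2 ratio -1.02, adjusted p = 0.146), with captures that differed from each other more than its totals did.

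In the RPL22 capture none of the 275 (0) and 0.0% of the 8588 transcripts tested passed the adjusted threshold in limma. At an unadjusted p below 0.05 the share was 19.6% (54) of the 275 and 20.2% of all. Captures lay above totals without overlap for 75 of the 275 (21.5% of all transcripts) and below them for 78 (31.4% of all). The median ratio was -0.02, against -0.03 over all, and it turned to 0.0058 when library medians were aligned and to 0.014 when only transcripts of 20 RPKM or more were kept. The SD of the ratios, 0.23, was the smallest of the 3 captures (0.22 over all transcripts).

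Without overlap, the highest RPL22 ratios belonged to uc007ssk.2 and uc007jcs.1. The first read 5.4 and 9.9 RPKM in the totals and 11.2 and 14.9 in the captures (log2 ratio 0.74, adjusted p = 0.157, limma). The second read 113.4 and 148.4 against 207.4 and 211.5 (log2 ratio 0.69, SE 0.12, adjusted p = 0.105). In the RPL10A line uc007ssk.2 lay the other way, with totals of 12.7 and 9.1 RPKM and captures of 6.5 and 2.7. Its totals averaged 7.65 RPKM in the RPL22 line, 10.9 in the RPL10A line and 13.4 in the RPS25 line. It met the selection level through the RPL10A and RPS25 totals, so its ratios are not independent of that choice.

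The lowest RPL22 ratios belonged to 2 transcripts of the uc029 series. For uc029qyg.1 the totals were 25.9 and 20.7 RPKM and the captures 14.7 and 13.1 (log2 ratio -0.70, SE 0.14, adjusted p = 0.110, limma). For uc029wdl.1 they were 26.7 and 22.5 against 16.2 and 14.5 (log2 ratio -0.64, adjusted p = 0.110). Both had the opposite sign in the RPL10A line, where uc029qyg.1 read 10 and 14.4 RPKM in the totals and 22.1 and 35.3 in the captures (log2 ratio 1.15, adjusted p = 0.0702). In the RPS25 line the captures of uc029qyg.1 were 29.1 and 16.6 RPKM over totals of 15.9 and 15.8, and those of uc029wdl.1 were 35.2 and 19.4 over 20.0 and 15.7.

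**Figure D3:**
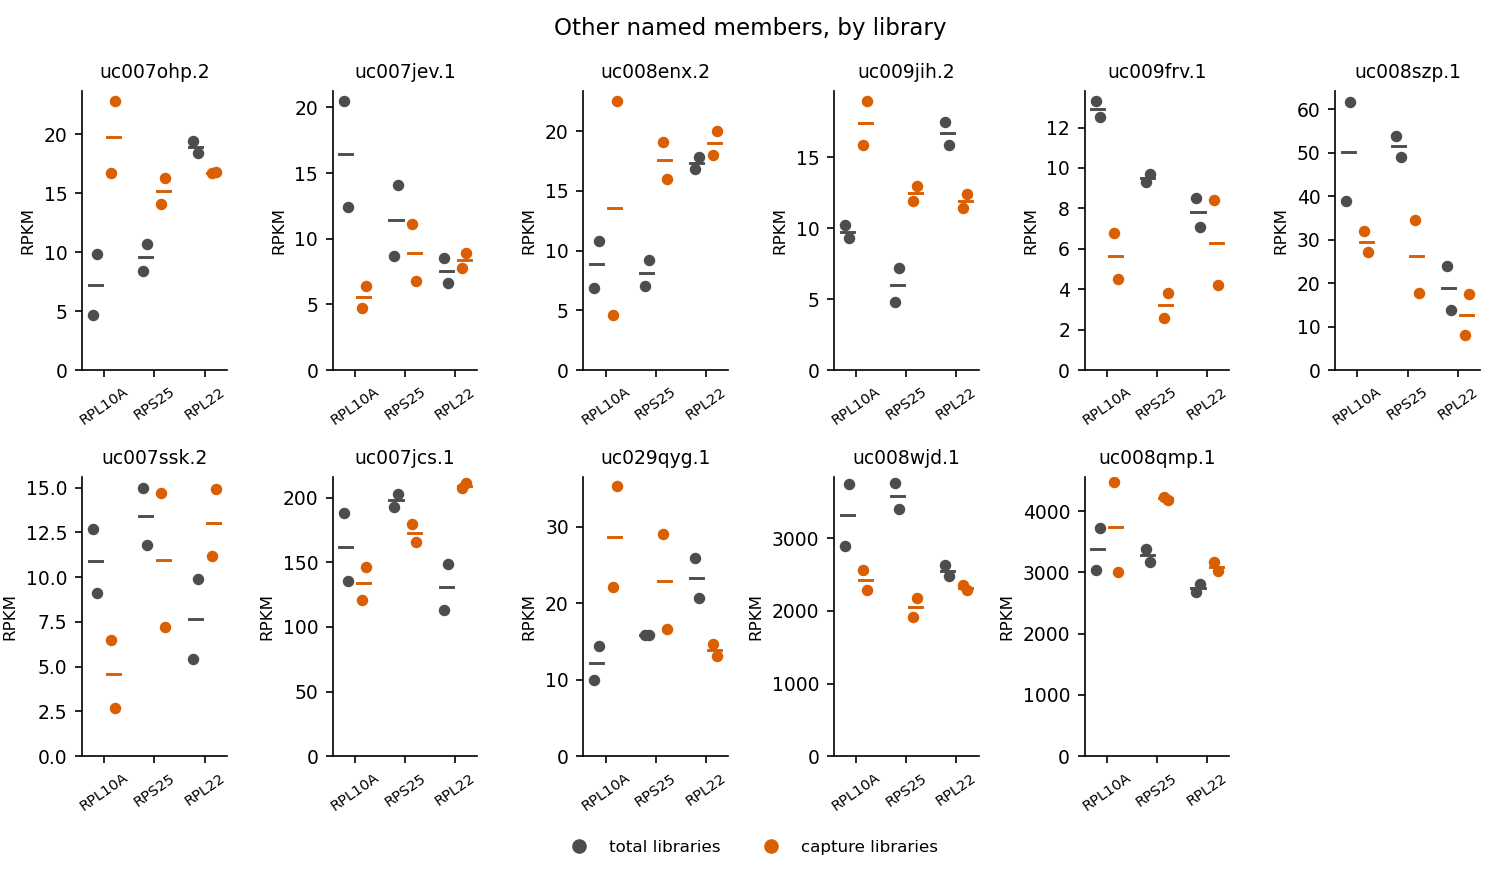
RPKM in each of the 12 footprint libraries for 11 further transcripts, those with the highest and lowest ratio in each capture among transcripts whose groups did not overlap, and the 2 most abundant; points are libraries (n = 2 per group), short lines group means, and each panel has its own vertical axis from 0. In uc029qyg.1 and uc009jih.2 the captures lie above the totals in the RPL10A line and below them in the RPL22 line.

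The ratios of the 2 FLAG-tagged lines ran together across the 275 transcripts, and the RPL22 ratio ran with neither. Between RPL10A and RPS25, which share no library, Pearson's r across the 275 was 0.59 and Spearman's rho 0.63, with the same sign for 197 (71.6%). The RNA-listed transcripts gave 0.57, 0.58 and 71.7%, so this relation was alike in both sets. Between RPL10A and RPL22 r was -0.10 and the sign was shared by 51.3% of the 275. Between RPS25 and RPL22 r was -0.10 and the sign was shared by 50.5%. These are descriptions across transcripts, which are not independent replicates, and the FLAG-tagged lines also share the bait tag, beads and buffer.

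Counts without overlap gave the same picture. In both FLAG-tagged lines, 33 of the 275 (12%) lay higher in the capture and 47 lower, while 12 lay in opposite directions. Among RNA-listed transcripts the shares were 13.1%, 17.1% and 3.77%. In all 3 lines, 6 of the 275 lay higher (2.88% of RNA-listed ones) and 16 lower (6.09%), and 34 showed an overlap in every line (10.5% of RNA-listed ones).

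**Figure D4:**
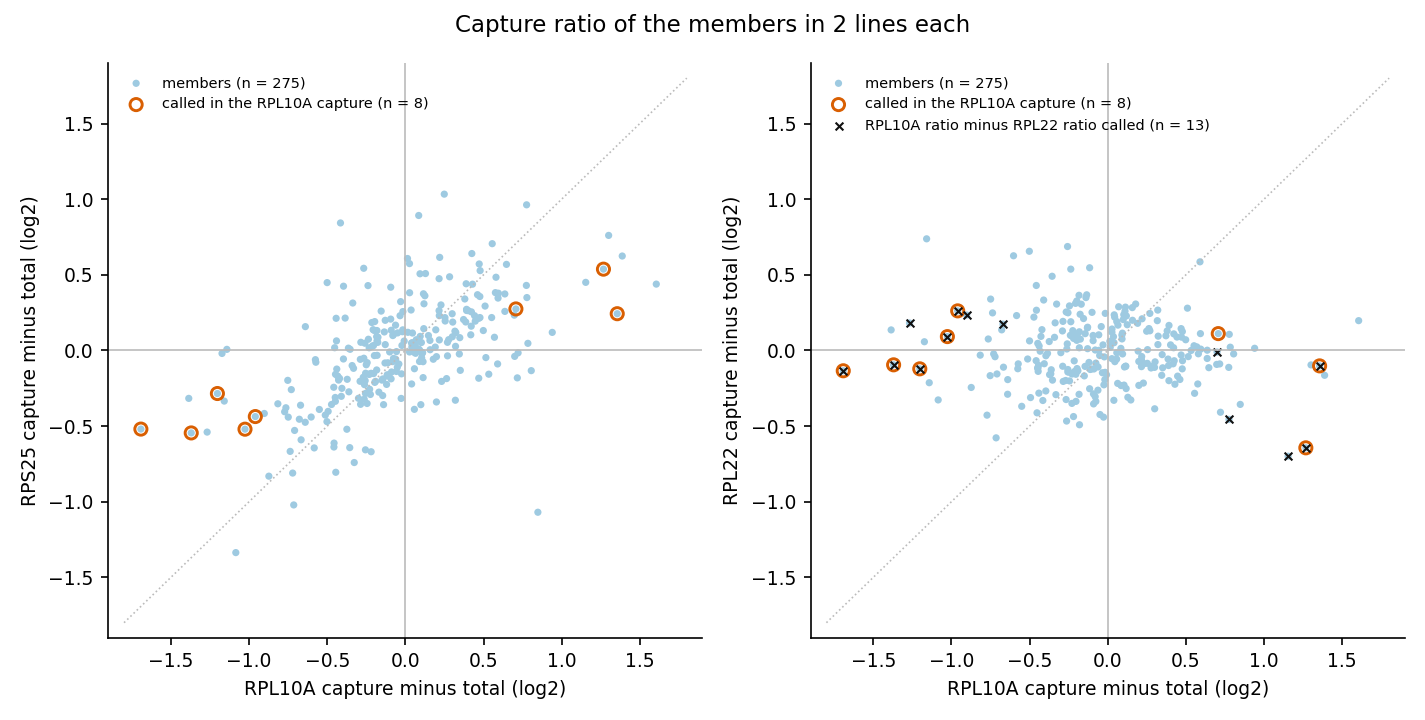
Capture minus total (log2) of the 275 transcripts in the RPL10A line (horizontal axes) against the RPS25 line (left) and the RPL22 line (right); circles mark the 8 called in the RPL10A capture, crosses the 13 whose RPL10A and RPL22 ratios differed by the interaction test, and the dotted line equal ratios. The ratios rise together on the left (r = 0.59) and show no such trend on the right (r = -0.10).

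The differences between ratios of 2 lines were tested directly as interaction terms in a fit of the 12 libraries over the 7605 common transcripts. RPL10A against RPS25 gave no call among the 275 (0) in limma, against 0.0657% of all. At an unadjusted p below 0.05, 13.8% (38) passed, against 10.8% of all, and the smallest adjusted p was 0.0651. RPS25 against RPL22 likewise gave none (0), against 0.0263% of all. At an unadjusted p below 0.05, 15.3% (42) passed, against 16.6% of all, and the smallest adjusted p was 0.0522.

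RPL10A against RPL22 was the comparison with calls. Of the 275, 13 (4.73%) passed, 5 with the higher ratio in the RPL10A line and 8 with the lower one, against 2.33% of all common transcripts (0.842% higher and 1.49% lower). At an unadjusted p below 0.05 the share was 27.6% (76), against 23.8% of all. With each library scaled to the same total the 13 became 15, 8 higher and 7 lower. The count was 0 without a variance trend, and it was 0 without RPL10A total replicate 1, RPL10A capture replicate 2, either RPS25 total or any RPL22 library. It was 39 without RPL10A total replicate 2, 29 without RPL10A capture replicate 1 and 26 without either RPS25 capture. Calls over all common transcripts, 177 in the fit of all libraries, moved alike: they numbered 0 to 43 in the settings where a library was left out and the count was 0, 727 and 446 without those RPL10A libraries, and 431 and 449 without RPS25 capture replicate 1 and 2.

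The 5 with the higher ratio in the RPL10A line were uc029wdl.1, by a log2 difference of 1.91 (SE 0.39, adjusted p = 0.0397, limma), uc029qyg.1, by 1.85 (SE 0.39, adjusted p = 0.0397), uc008oas.1, by 1.46 (SE 0.27, adjusted p = 0.0318), uc009jih.2, by 1.23 (SE 0.27, adjusted p = 0.0403), and uc011zrp.1, by 0.71 (SE 0.17, adjusted p = 0.0495). All 5 had an RPL22 ratio below 0, and 4 of the 5 had an RPS25 ratio above 0. Of these, uc009jih.2 had met the selection level through its RPL22 totals, so its difference is not independent of the choice. The RPL10A totals of uc011zrp.1 were 236.1 and 281.7 RPKM and its captures 442.5 and 397.4, whereas its captures and totals overlapped in the other lines.

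The 8 with the lower ratio in the RPL10A line comprised all 5 transcripts called lower in that capture, together with uc007xdq.2, uc007tnv.3 and uc009sbv.1. Their log2 differences ran from -1.56 (uc009guh.1) to -0.84 (uc007xdq.2). In the RPL10A line uc007xdq.2 read 187.7 and 154.5 RPKM in the totals and 106.0 and 107.2 in the captures, and in the RPL22 line it read 100.6 and 106.1 against 114.9 and 118.4. All 8 had an RPS25 ratio below 0, and 5 of the 8 had an RPL22 ratio above 0. Of the 8, uc029rsg.1 reached the selection level only with its RPL10A totals counted in, so its difference is not independent of the choice.

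The RPL22 line also differed from the FLAG-tagged lines in the total level of single transcripts. Set against the mean of the RPL10A and RPS25 totals, 14 of the 275 were more than 2-fold higher in the RPL22 totals and 16 more than 2-fold lower, 10.9% in all, against 10.2% of RNA-listed transcripts. Between the RPL10A and RPS25 totals none (0) of the 275 differed that much, against 0.526% of RNA-listed ones. These comparisons are across tables that were normalised separately and are given without a test.

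The extremes illustrate how large those gaps were. For uc009kpj.1 the totals read 624.2 and 505.4 RPKM in the RPL10A line, 486.6 and 518.4 in the RPS25 line and 55.0 and 51.4 in the RPL22 line. For uc009euv.1, one of the transcripts lower in the RPL10A capture, they read 71.7 and 59.0, then 50.2 and 48.5, then 8.1 and 10. In the other direction, uc009ujh.2 read 1.7 and 8.4 RPKM, then 6.3 and 3.3, then 29.8 and 30.1. Its RPL10A and RPS25 totals averaged 4.9 RPKM, so it met the selection level only through the RPL22 totals. All 3 had capture libraries in the FLAG-tagged lines on the side of the RPL22 level on average. For uc009kpj.1 the RPL10A captures were 415.6 and 272.5 RPKM and the RPS25 captures 306.6 and 325.4, each below its own totals, while uc009ujh.2 had RPL10A captures of 7.7 and 26.0.

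This held more widely across the 275 transcripts. The RPL10A ratio was set against the gap in total level between the RPL22 and RPS25 lines, a pair of measures that have no library in common. Pearson's r was 0.55 and Spearman's rho 0.55 across the 275, and 0.45 and 0.46 across the RNA-listed transcripts. Of the 14 whose RPL22 total was more than 2-fold below the RPS25 total, all 14 had an RPL10A ratio below 0, with a median of -0.56. Among RNA-listed transcripts with such a gap, 78.4% (251 of 320) were below 0. Of the 15 whose RPL22 total was more than 2-fold above, 11 had an RPL10A ratio above 0, with a median of 0.25, against 82.1% (247 of 301) of RNA-listed ones.

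The same relation with the FLAG-tagged lines exchanged had lower coefficients. Across the 275 the RPS25 ratio and the gap between the RPL22 and RPL10A totals had r = 0.45 and rho 0.46, and across the RNA-listed transcripts 0.32 and 0.34. Of 16 transcripts with an RPL22 total more than 2-fold below the RPL10A total, 13 had an RPS25 ratio below 0, against 61.8% (235 of 380) of RNA-listed ones. Of 15 more than 2-fold above, 13 had one above 0, against 77.0% (238 of 309). The relation was found after the values had been seen and carries no p-value. Some transcripts, such as uc009ujh.2, met the selection level through the totals of 1 line only, so gap and choice are not independent. The part of antibody, buffer, processing tools and line in it was not tested. Whether it is stronger among the 275 than among RNA-listed transcripts was not tested either.

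**Figure D5:**
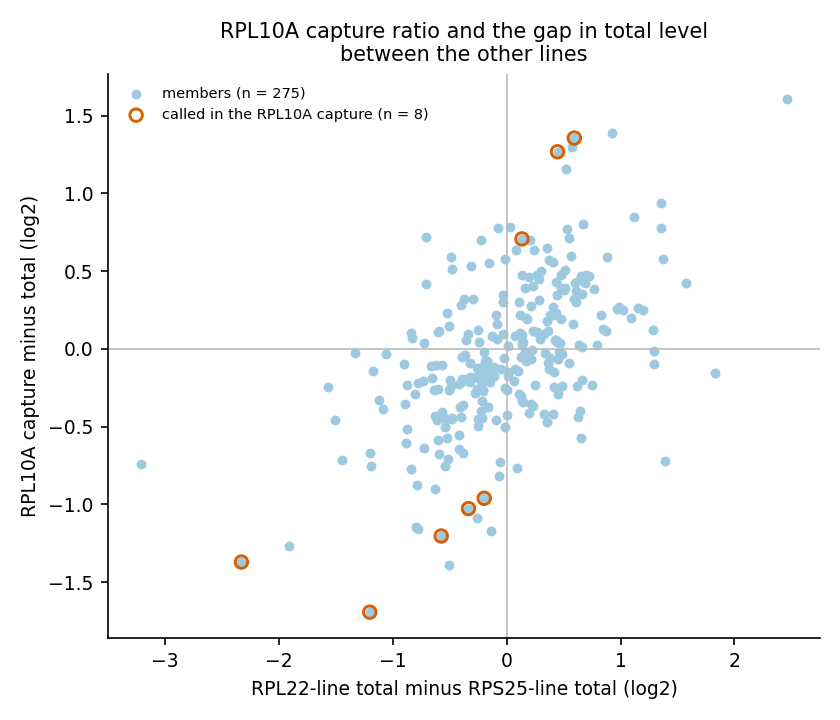
RPL10A capture minus total (log2, vertical) against the RPL22-line total minus the RPS25-line total (log2, horizontal) for the 275 transcripts, measures with no library in common; circles mark the 8 called in the RPL10A capture. The points rise from lower left to upper right (r = 0.55), and the 14 transcripts left of a 2-fold gap all lie below 0.

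By level, the median ratio of the 275 varied little in the RPS25 capture and rose from band to band in the RPL22 capture. The median RPL10A ratio was -0.08 from 10 to 30 RPKM, -0.13 from 30 to 100, 0.08 from 100 to 300 and 0.09 at 300 RPKM or more, against 0.01, -0.03, -0.07 and -0.05 for RNA-listed transcripts. The median RPL22 ratio in the same bands was -0.08, 0.01, 0.04 and 0.10, and that of RNA-listed transcripts -0.05, -0.04, -0.02 and 0.07. In the RPS25 capture all band medians of the 275 lay between -0.04 and 0.02. The RPL10A and RPS25 medians are small beside the spread of single transcripts (SD 0.49 and 0.35), while the RPL22 ratios had an SD of 0.23. In the RPL22 capture 48 of 136 were above 0 from 10 to 30 RPKM, and 22 of 33 at 300 RPKM or more. The differences between bands were not tested.

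By identifier series, the 13 transcripts of uc029 had a median ratio of 0.22 in the RPL10A capture, with 10 of 13 above 0, and of 0.35 in the RPS25 capture, with 11 of 13 above 0. In the RPL22 capture their median was -0.11, with 3 of 13 above 0. The RNA-listed transcripts of uc029 had medians of -0.09, -0.04 and -0.04 in the same order. In the other higher-numbered series the medians in the RPL10A and RPS25 captures were -0.03 and -0.07 for the 21 transcripts of uc033, -0.04 and -0.07 for the 22 of uc012, and 0.10 and 0.05 for the 15 of uc011. The group was formed after the identifiers and values had been seen. It contains uc029qyg.1 and uc029wdl.1, whose log2 difference ranged over 0.32 across the 12 libraries.

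Some of the 275 had levels that ran parallel to those of another transcript in all 12 libraries. For 18 of them the log2 difference from some other common transcript ranged over less than 0.2. For 15 of the 18 that other transcript was listed in the RNA-seq tables, as were 7263 of all 7605 common transcripts. Parallel did not mean equal in level. The level of the 18 over that of the other transcript ran from 0.026 (uc007wle.2) to 44.7 (uc007igj.1). At 300 RPKM or more, 33.3% (11 of 33) had a range under 0.2, against 21.3% of RNA-listed transcripts. From 10 to 30 RPKM 0.735% had one, against 1.4%. Parallel levels were thus mainly a feature of abundant transcripts in both sets. The threshold was chosen after the values had been seen.

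The closest case was uc008qmm.3, with a mean of 1855 RPKM in the total libraries. Its 2 nearest transcripts, uc008qmo.1 (1872 RPKM) and uc008qmk.2 (1860 RPKM), are both in the RNA-seq tables and have neighbouring identifiers. In the RPL10A totals, uc008qmm.3 read 2638.1 and 1945.7 RPKM where uc008qmo.1 read 2673.3 and 2012.4. In the RPL22 captures they read 1648.8 and 1873.6, and 1661.8 and 1889.8. Over the 12 libraries the largest log2 difference was 0.05 from either one. Likewise uc007avm.2 (721 RPKM) and uc008zeo.3 (731 RPKM), both among the 275, differed by an amount that ranged over 0.14.

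The narrowest range of uc029qyg.1 with any transcript was with uc029wdl.1, at 0.32, above the limit of 0.2. The median narrowest range of the 275 was 0.43 from 10 to 30 RPKM. Both transcripts are among the 13 called in the RPL10A against RPL22 comparison. The sources used here do not say how reads shared by near-identical transcripts were assigned. Levels of any near-identical copies therefore cannot be told apart in these tables. Whether any of the 275 or their parallel transcripts are such copies was not tested, as no sequences were at hand.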

How the data were processed

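Ribo-Seq was measured in 12 libraries and RNA-seq in 8, 2 per group. The authors deposited RPKM per transcript for each Ribo-Seq library, per the file headers, with 1 decimal. For RNA-seq the authors deposited a scaled signal that the file headers call RPM. Its columns sum to between 943664 and 1067209, and 4 of the 8 sums are too high for RPM of a whole library, so it served only to see which transcripts are listed. The submitters' processing notes name cutadapt, Bowtie2 and mm10, and STAR for the RPL22 and RNA-seq libraries. Which filters and transcript annotation were used is not given in these sources.

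Groups follow the sample titles. Members and lists were chosen with earlier results of these data known. log2(RPKM + 1) was fitted with limma 3.58.1 in R 4.3.3 (moderated variances with a trend), each capture on the 4 libraries of its line and differences between ratios on all 12 libraries. Tests were two-sided, adjusted by Benjamini-Hochberg over all transcripts of the fit and called below 0.05. The code was tested on simulated data. Named by rule were, per capture, the 2 highest and 2 lowest ratios among members without overlap, and the 2 most abundant members. The other members called in the RPL10A capture or with a called RPL10A against RPL22 difference, the extremes of the line gap and the parallel transcripts were chosen after their values were seen. Alternatives were other pseudocounts (0.5, 5), scalings, level limits (5, 20 RPKM), a filter at 10 RPKM, no variance trend, a replicate block, a fit of all 12 libraries and leaving out each library. Gene lists and marker lists need gene names and were not applied.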

Additional observations from a re-analysis of the deposited data

Results flagged for a closer look

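By the interaction test (limma, adjusted p below 0.05), the capture ratios of the RPL10A and RPL22 lines differed for 13 of the 275 transcripts (4.73%). Of these, 5 ratios were higher and 8 lower in the RPL10A line. Over all common transcripts 2.33% passed, 0.842% higher and 1.49% lower. No call among the 275 remained without a variance trend, and the count moved when single libraries were left out. Among the transcripts named by rule, the log2 difference between the ratios was 1.91 for uc029wdl.1, 1.85 for uc029qyg.1, 1.46 for uc008oas.1, 1.23 for uc009jih.2 and -1.56 for uc009guh.1. Groups of 2 libraries are too small for a check for single outlying samples.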

How the results depend on the processing

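Of 762 alternative values of the ratios of the 14 transcripts named by rule, 645 kept their direction and their side of the threshold, 60 lost a call, 40 gained one, and 17 values, uncalled under both settings, changed sign. No called value was reversed.

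The 8 calls in the RPL10A capture became 14 with a filter at a mean of 10 RPKM, 2 without a variance trend, 13 with a replicate block (5 higher, 8 lower), 58 in the fit of 12 libraries, and 0 to 0 when each library was left out in turn; over all transcripts 124 calls became 190, 38, 202, 1302 and 0. The RPS25 count of 0 became 8 in the fit of 12 libraries, and the RPL22 count of 0 became 29 with the replicate block (21 higher, 8 lower), both 0 to 0 with a library left out. For RPL10A against RPS25 a library left out gave 0 to 3. For RPL10A against RPL22, 13 became 0 without a variance trend, 9 with the replicate block and 0 to 39 with a library left out. For RPS25 against RPL22, 0 became 1 with a pseudocount of 5, 4 with libraries scaled to the same total, 1 with the filter and 0 to 8 with a library left out. The cause was not tested; leaving out a library leaves an arm with 1 library, assumed to vary like the others.

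The median RPL10A ratio of -0.063 became -0.099 with scaling to the same total, -0.080 with library medians aligned, and -0.062 to -0.035 with a library left out. The RPS25 median of 0.0027 became -0.043 with medians aligned and ran from -0.024 to 0.019. The RPL22 median of -0.023 became -0.11 with scaling to the same total, 0.0058 with medians aligned and 0.014 for members of 20 RPKM or more, and ran from -0.021 to -0.0051.

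With only 2 pairs per line, replicate numbers were not taken to pair libraries: same-numbered deviations correlated at 0.00 (RPL10A), 0.01 (RPS25) and 0.17 (RPL22) across transcripts. Over whole tables the block called 202, 6 and 692 transcripts. Read depth is unknown, so counting error at low RPKM could not be separated from other spread.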
